A study of Mus musculus with 16 samples.

Results

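The genes of 4 bone morphogenetic proteins (Bmp2, Bmp4, Bmp6 and Bmp7), of 3 secreted BMP antagonists (Nog, Grem1 and Chrdl1) and of the 3 transforming growth factor β isoforms (Tgfb1, Tgfb2 and Tgfb3) were followed in cultured mouse chondrocytes. They are 10 of the 55414 gene identifiers counted, taken by symbol, and all 10 passed the filter of at least 10 counts summed over the libraries compared. The cells were chondrocyte-enriched primary cultures from the epiphyses of 3 to 4 day old C57BL/6 mice, male and female pooled. One genotype was heterozygous for Notch2tm1.1Ecan, an allele with a stop codon in Notch2 whose product lacks the PEST domain that marks NOTCH2 for degradation, so that the receptor gains function. The other was the wild-type littermate control. Cells of either genotype were exposed to vehicle or to tumor necrosis factor α (TNFα, 50 ng/ml, 6 h), which gave control vehicle, Notch2tm1.1Ecan vehicle, control TNFα and Notch2tm1.1Ecan TNFα, with 4 libraries in each. The allele is present in every cell type of the mouse, so that other cells in the cultures carried it too. By the sample labels only cultures given TNFα had been moved to medium without serum, whereas the study's text has both treatments without serum. If the labels are right, TNFα and serum removal cannot be told apart in the comparisons of TNFα with vehicle.

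BMPs and TGF-β isoforms are secreted dimers that bind pairs of type I and type II serine/threonine kinase receptors. BMP receptors phosphorylate SMAD1, SMAD5 and SMAD9, and TGF-β receptors phosphorylate SMAD2 and SMAD3, and both kinds of SMAD enter the nucleus with SMAD4. Noggin, gremlin 1 and chordin-like 1 bind BMPs outside the cell and keep them from their receptors. In cartilage, BMPs drive chondrogenesis and chondrocyte growth, and TGF-β holds back hypertrophic maturation.

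Between 3439726 and 44237300 counts fell on genes in a library, with a median of 17062419. The lowest total belonged to Notch2tm1.1Ecan TNFα replicate 4, where 3 counts, taken as the limit of detection, were worth 0.835 CPM (counts scaled to a common library size with edgeR's TMM factors, as CPM throughout). The replicate 4 libraries of both control groups stood apart. The summed level of 9 NF-κB target genes was 1045 CPM in control vehicle replicate 4 and between 171 and 187 CPM in the other control vehicle libraries. It was 4926 CPM in control TNFα replicate 4 and between 5648 and 6136 CPM in the other control TNFα libraries. By this measure each of the pair lay towards the other treatment, and whether RNA of the 2 samples was mixed was not tested. The plot of fold changes shows the 10 genes also without both of these libraries, and the text gives such values where they bear on a result. The labelled cell type was checked with 14 chondrocyte markers, such as Sox9, Acan and Col2a1, none of which was at 0 in all libraries of a group. Their summed level was 52884 to 56100 CPM in control vehicle and 32681 to 38669 CPM in Notch2tm1.1Ecan vehicle, and 36980 to 43831 CPM in control TNFα and 20575 to 22885 CPM in Notch2tm1.1Ecan TNFα.

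Positions are given on GRCm39. Bmp2 lies at chr2:133394079-133404816, Bmp4 at chr14:46620250-46636745, Bmp6 at chr13:38529065-38684280 and Bmp7 at chr2:172709805-172782410. Nog, a gene of 1 exon, lies at chr11:89191464-89193158, Grem1 at chr2:113576509-113589000 and Chrdl1 at chrX:142068670-142177258. The isoform genes Tgfb1, Tgfb2 and Tgfb3 lie at chr7:25386390-25404506, chr1:186354985-186438294 and chr12:86102756-86126301. All 10 are protein coding, and the counts cover all transcripts of a gene together.

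Promoter sequences of RefSeq (table build GRCm38.p6) were found for 5 of the 10 genes, namely Bmp4, Bmp6, Grem1, Tgfb1 and Tgfb2, and each matched GRCm39 at 1 place. Bmp2, Bmp7, Nog, Chrdl1 and Tgfb3 had no entry. The 250 bases before the RefSeq start were searched on both strands for the NF-κB consensus, since NF-κB carries much of the transcriptional response to TNFα, for the RBPJ core GTGGGAA, since RBPJ is the DNA-binding partner of Notch, for the AP-1 site TGANTCA, for the cAMP response element TGACGTCA and for the core promoter motif TATAAA. The stretches upstream of the annotated exons of the gene itself are printed for the 1 gene with a promoter entry that rose with TNFα, Tgfb1, and for the 3 that fell in control cells, Bmp4, Grem1 and Tgfb2, 5′ to 3′ on the strand of the gene. Capitals mark the NF-κB consensus.
Tgfb1, chr7:25386177-25386389, plus strand: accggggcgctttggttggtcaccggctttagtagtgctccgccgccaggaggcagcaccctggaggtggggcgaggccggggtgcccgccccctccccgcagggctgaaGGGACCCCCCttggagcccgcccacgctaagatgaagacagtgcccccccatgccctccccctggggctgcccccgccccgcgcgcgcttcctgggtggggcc
Tgfb2, chr1:186438295-186438436, minus strand: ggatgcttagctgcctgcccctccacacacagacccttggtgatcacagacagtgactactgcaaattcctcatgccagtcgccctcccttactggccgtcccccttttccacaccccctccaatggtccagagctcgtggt
Bmp4, chr14:46628127-46628376, minus strand: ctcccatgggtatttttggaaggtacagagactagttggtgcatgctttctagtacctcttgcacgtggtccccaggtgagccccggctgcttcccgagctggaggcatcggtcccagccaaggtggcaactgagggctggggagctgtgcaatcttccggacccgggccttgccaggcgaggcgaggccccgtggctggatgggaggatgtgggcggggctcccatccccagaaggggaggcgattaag
Grem1, chr2:113589001-113589243, minus strand: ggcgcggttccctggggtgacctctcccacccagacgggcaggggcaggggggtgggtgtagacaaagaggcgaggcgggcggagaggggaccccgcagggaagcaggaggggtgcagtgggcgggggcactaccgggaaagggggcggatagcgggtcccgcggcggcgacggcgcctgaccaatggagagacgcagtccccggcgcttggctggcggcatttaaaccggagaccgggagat

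In Tgfb1 the NF-κB consensus was found on both strands, 140 to 131 bases before the RefSeq start. In the same length of all 32851 RefSeq promoters the motif was present in 7.25%. The windows of Bmp4, Grem1 and Tgfb2 held no NF-κB consensus, and none of the 5 windows held GTGGGAA, present in 5.42% of promoters, TGANTCA, present in 6.75%, or TGACGTCA, present in 1.55%. A TATAAA, present in 12.4% of promoters, lay 31 to 26 bases before the RefSeq start of Tgfb2, within an annotated exon of the gene and outside the part printed. The Bmp4 window lies inside the span of the gene, since longer annotated transcripts start further upstream, and 156 of its bases overlap an exon of Gm63461 on the opposite strand. The Bmp6 window lies wholly within an exon of Bmp6 and is not shown. A match in letters is a description of the sequence and was not tested as a site.

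Per kilobase of merged exons, the levels of the 10 genes in control vehicle cells spanned from 0.699 ± 0.108 CPM per kb (SD, n = 4) for Bmp7 to 48.0 ± 1.93 for Tgfb3. Tgfb3 and Grem1, at 46.4 ± 2.08 CPM per kb, overlapped between libraries. They were followed without overlap by Tgfb2 at 33.1 ± 1.16, Bmp4 at 29.1 ± 1.63, Nog at 16.8 ± 0.879, Chrdl1 at 14.9 ± 0.397 and Tgfb1 at 10.3 ± 0.638 CPM per kb. Bmp6 at 2.19 ± 0.253 and Bmp2 at 1.36 ± 0.381 CPM per kb overlapped, and Bmp7 came last. This order depends in part on the length used. Per kilobase of the longest transcript Tgfb3 was at 60.0 ± 2.41, while Grem1 has the same length by either measure. Per kilobase of the longest transcript the mean of Bmp4 (43.8) lay above that of Tgfb2 (39.0). Chrdl1 (24.1) and Tgfb1 (20.4) then lay above Nog, whose length is the same by either measure.

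By merged exon length, the order differed in the other groups. In Notch2tm1.1Ecan vehicle cells Tgfb3 was alone at the top at 88.0 ± 4.41 CPM per kb, and Grem1, at 22.9 ± 3.60, came after Bmp4 and Tgfb2 without overlap. In control TNFα cells Grem1 led at 38.7 ± 3.31 CPM per kb, and Tgfb1, Tgfb3 and Tgfb2 followed, each overlapping the next, at 16.9 ± 1.93, 16.9 ± 4.28 and 16.8 ± 3.15. In Notch2tm1.1Ecan TNFα cells Grem1, at 19.3 ± 0.943 CPM per kb, overlapped Tgfb1 at 18.0 ± 0.801, which overlapped Tgfb3 at 16.5 ± 0.646. Nog, at 2.36 ± 0.701 CPM per kb, overlapped Bmp6, at 2.15 ± 0.302, in these cells. Grem1 has 4157 bases by either length, and Tgfb1 has 5083 by merged exons and 2573 by its longest transcript. The place of Grem1 above Tgfb1 in Notch2tm1.1Ecan TNFα cells thus depends on the length used. Bmp7 was the lowest of the 10 genes in all 4 groups.

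**Figure D1:**
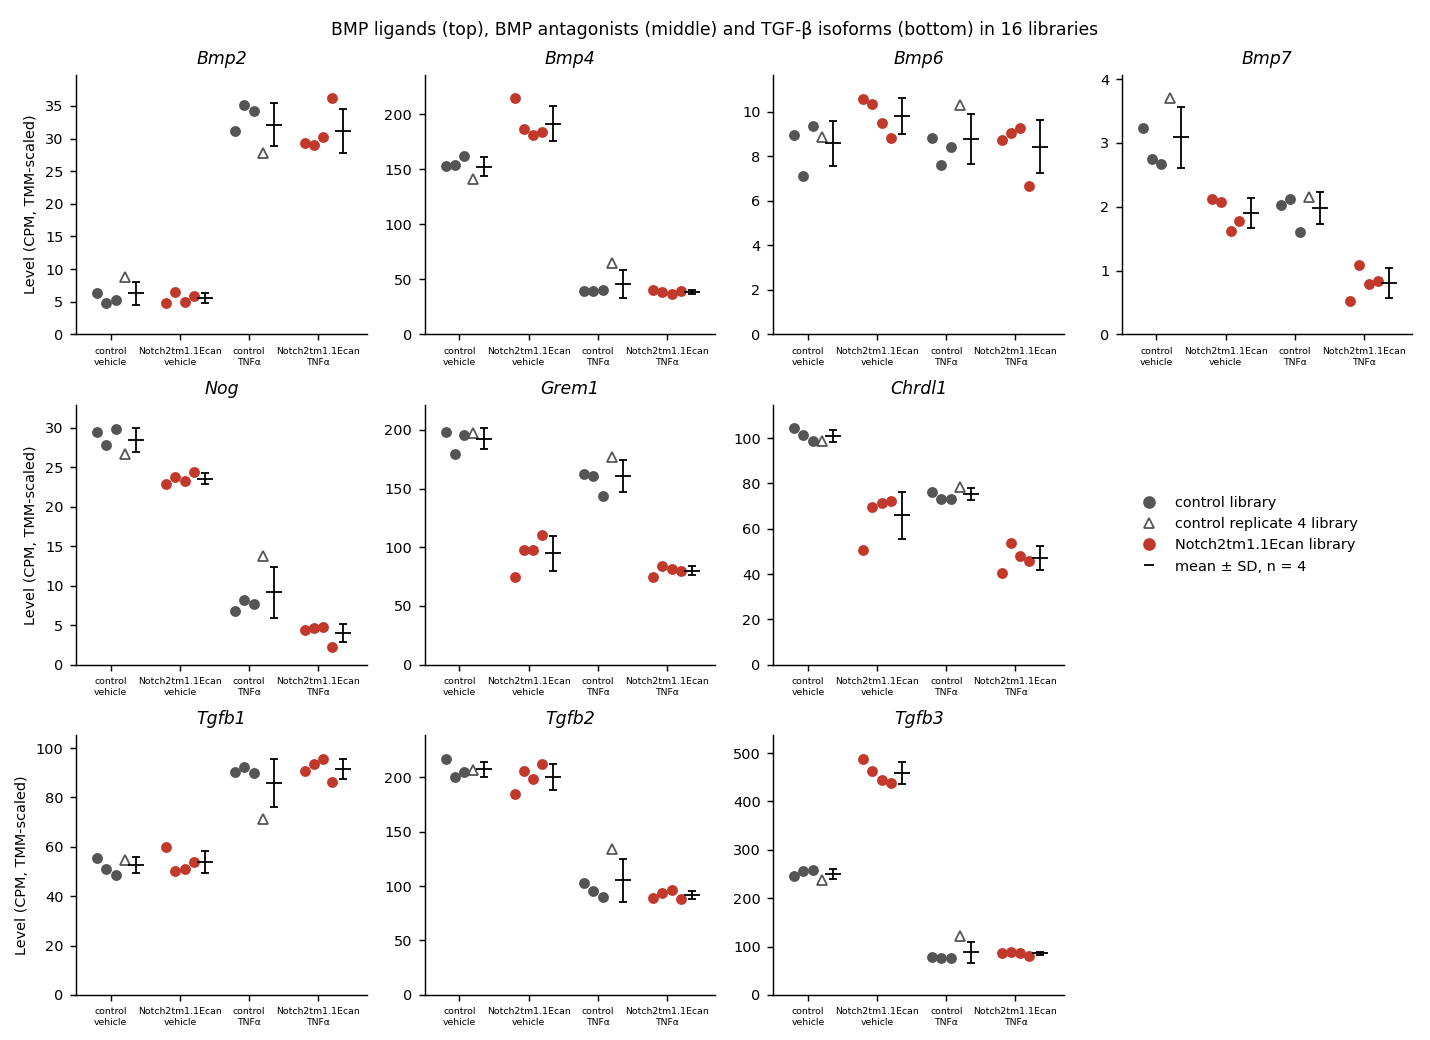
Level of each gene in CPM (TMM-scaled, linear axes from 0) in each library of the 4 groups, with mean ± SD (n = 4) in black beside the libraries; open triangles are the replicate 4 libraries of the control groups. Bmp2 and Tgfb1 sat higher in the TNFα groups, Bmp4, Nog, Tgfb2 and Tgfb3 lower, Grem1 and Chrdl1 were lower in Notch2tm1.1Ecan cells under both treatments, and Tgfb3 reached 438 to 489 CPM in Notch2tm1.1Ecan vehicle cells.

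TNFα changed most of the 10 genes in either genotype. In control cells, 2 rose and 7 fell at an adjusted p under 0.05, against 44.2% of the 19338 genes tested (23.3% higher and 20.9% lower), and the libraries of both groups did not overlap for these 9, against 42.2% of genes. The median log2 fold change was -0.49 for the 10 genes and 0.04 for all genes. In Notch2tm1.1Ecan cells 2 rose and 6 fell, against 44.5% of 19633 genes (22.6% higher and 21.9% lower), and 7 did not overlap, against 40.9% of genes, with medians of -0.76 and 0.03. Intervals given for log2 fold changes are approximate 95% intervals from the SE, and adjusted p values come from quasi-likelihood fits in edgeR, adjusted over all genes tested by the Benjamini-Hochberg method. Without both control replicate 4 libraries 8 of the 10 genes passed in control cells, against 47.4% of genes. Where the change also had to reach 1 on the log2 scale, 4 passed in control cells, against 11.8% of genes, and 6 in Notch2tm1.1Ecan cells, against 13.9%.

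NOTCH2 gain-of-function was set beside control under each treatment. With vehicle, 2 of the 10 genes were higher and 4 lower in Notch2tm1.1Ecan cells, against 10.5% of 19432 genes (6.19% higher and 4.35% lower). The libraries did not overlap for these 6, against 16.1% of genes. With TNFα, 4 were lower and none was higher, against 9.94% of 19227 genes (5.63% higher and 4.31% lower), and these 4 did not overlap, against 15.3% of genes. Median log2 fold changes were -0.11 with vehicle and -0.22 with TNFα, beside -0.002 and -0.012 for all genes. A difference between genotypes in the response to TNFα, tested as an interaction over all 16 libraries, passed for 1 of the 10 genes, against 0.474% of 21321 genes. Both comparisons of TNFα share their groups with those of genotype, so that they are not independent of each other. Without both control replicate 4 libraries 5 genes passed for genotype with vehicle, against 10.4% of genes, 4 with TNFα, against 11%, and 1 for the interaction, against 0.63%. Where the change also had to reach 1 on the log2 scale, 1 passed with vehicle, against 1.26%, 2 with TNFα, against 1.41%, and 0 for the interaction, against 0.0469%.

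Markers of other cell types moved with genotype, though several were not called singly. The summed level of 10 macrophage markers was 68.0 to 72.6 CPM in control vehicle and 120 to 139 CPM in Notch2tm1.1Ecan vehicle, and 78.9 to 93.6 CPM in control TNFα and 158 to 177 CPM in Notch2tm1.1Ecan TNFα. Of 5 smooth muscle markers the sum was 1959 to 2234 CPM against 3919 to 4661 CPM with vehicle, and 1027 to 1248 CPM against 1905 to 2283 CPM with TNFα. Of 7 endothelial markers it was 8.58 to 10.7 CPM against 18.7 to 22.6 CPM with vehicle, and 11.1 to 13.8 CPM against 19.3 to 26.5 CPM with TNFα. For 8 fibroblast and perichondrium markers it was 32163 to 34936 CPM against 36529 to 39931 CPM, and 30507 to 33473 CPM against 35030 to 41415 CPM. Singly, 4 of these 8 were called higher and 2 lower with vehicle, and 5 higher and 1 lower with TNFα, so that the list did not move as a whole. Of 6 skeletal muscle markers it was 17.7 to 22.0 CPM against 28.6 to 34.4 CPM with vehicle, and with TNFα 5.27 to 13.8 CPM against 13.2 to 32.8 CPM, which overlapped. With vehicle 7 of the 10 macrophage, 5 of the 5 smooth muscle, 4 of the 7 endothelial and 3 of the 6 skeletal muscle markers were called higher. With TNFα these counts were 8, 4, 3 and 1. No macrophage, smooth muscle, endothelial or skeletal muscle marker was called lower. All 14 chondrocyte markers passed the threshold as lower in Notch2tm1.1Ecan cells under either treatment, with medians of -0.64 and -0.92, and 13 did so with vehicle without both control replicate 4 libraries. No marker of these lists was at 0 in all libraries of a group. In these bulk libraries cell numbers, RNA per cell and expression of a marker by other cells, chondrocytes included, cannot be told apart. The part of these cell types in the differences between genotypes given next was not tested.

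Bmp2, an osteogenic and chondrogenic BMP, rose with TNFα. It was at 6.29, 4.82, 5.35 and 8.80 CPM in the control vehicle libraries and at 31.2, 35.1, 34.3 and 27.8 CPM in the control TNFα libraries. It was at 4.82, 6.54, 5.03 and 5.95 CPM in Notch2tm1.1Ecan vehicle and at 29.3, 28.9, 30.2 and 36.2 CPM in Notch2tm1.1Ecan TNFα. All TNFα libraries lay above all vehicle libraries, and the genotypes overlapped under both treatments. The rise was 5.18-fold in control cells (log2 fold change 2.37 ± 0.15 (SE), adjusted p = 1.3e-07, n = 4), or 6.21-fold without both control replicate 4 libraries, and 5.58-fold in Notch2tm1.1Ecan cells (2.48 ± 0.11, adjusted p = 5.63e-17). Genotype made no difference past the threshold, with intervals of -0.51 to 0.15 for vehicle and -0.23 to 0.11 for TNFα on the log2 scale. In vehicle libraries the highest Bmp2 was in control replicate 4, and without it the genotype difference of -0.18 became 0.02.

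Bmp4, which acts in the growth plate and perichondrium, moved the opposite way. Control vehicle libraries held 153, 154, 162 and 141 CPM of it, and control TNFα libraries 39.1, 39.4, 40.7 and 65.3 CPM. Notch2tm1.1Ecan vehicle libraries held 215, 186, 181 and 184 CPM, and Notch2tm1.1Ecan TNFα libraries 40.5, 38.4, 36.7 and 39.2 CPM. Every TNFα library was below every vehicle library, Notch2tm1.1Ecan vehicle was above control vehicle without overlap, and with TNFα the genotypes overlapped.

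The fall of Bmp4 was 3.2-fold in control cells (log2 fold change -1.68 ± 0.19, adjusted p = 0.000414) and 3.83-fold without the replicate 4 libraries of both control groups. In Notch2tm1.1Ecan cells it was 4.78-fold (-2.26 ± 0.07, adjusted p = 3.2e-20). With vehicle Bmp4 was 1.25-fold higher in Notch2tm1.1Ecan cells (0.33 ± 0.06, adjusted p = 0.000405), a call that was lost in a fit to all 16 libraries (0.32 ± 0.13, adjusted p = 0.19). The responses to TNFα differed by -0.58 ± 0.20, which was not past the threshold (adjusted p = 0.363, and 0.112 without both replicate 4 libraries).

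Bmp6, an activator of hepcidin in the liver that is also made by hypertrophic chondrocytes, passed in no comparison. Its libraries ranged from 7.11 to 9.33 CPM in control vehicle, 8.81 to 10.6 CPM in Notch2tm1.1Ecan vehicle, 7.61 to 10.3 CPM in control TNFα and 6.68 to 9.26 CPM in Notch2tm1.1Ecan TNFα. Ranges of all 4 groups overlapped. The intervals were -0.17 to 0.32 for TNFα in control cells, -0.33 to 0.14 for TNFα in Notch2tm1.1Ecan cells, -0.05 to 0.41 for genotype with vehicle and -0.25 to 0.26 for genotype with TNFα.

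Bmp7, which has roles in kidney, eye and skeleton, was scarce. It was at 3.23, 2.75, 2.68 and 3.70 CPM in control vehicle, at 2.13, 2.08, 1.62 and 1.78 CPM in Notch2tm1.1Ecan vehicle and at 2.03, 2.12, 1.60 and 2.16 CPM in control TNFα. Notch2tm1.1Ecan TNFα libraries held 0.521, 1.08, 0.796 and 0.835 CPM, from 8, 19, 14 and 3 counts, so that the last was at the limit of detection. Control vehicle lay above the other groups, Notch2tm1.1Ecan TNFα lay below them, and the pair between overlapped.

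TNFα lowered Bmp7 1.52-fold in control cells (log2 fold change -0.60 ± 0.20, adjusted p = 0.0188) and 2.23-fold in Notch2tm1.1Ecan cells (-1.15 ± 0.29, adjusted p = 0.00192). Notch2tm1.1Ecan cells had 1.64-fold less with vehicle (-0.72 ± 0.20, adjusted p = 0.0182) and 2.40-fold less with TNFα (-1.26 ± 0.30, adjusted p = 0.00508). Without the replicate 4 libraries of both control groups the adjusted p was 0.054 for TNFα in control cells and 0.0514 for genotype with vehicle. With 1 library left out at a time, the first of these calls was lost in 2 of 8 fits (without control vehicle replicate 4 or control TNFα replicate 3) and the second in 4 of 8 (without control vehicle replicate 1 or 4 or Notch2tm1.1Ecan vehicle replicate 3 or 4). The other Bmp7 calls, for TNFα in Notch2tm1.1Ecan cells and for genotype with TNFα, were lost in none.

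**Figure D2:**
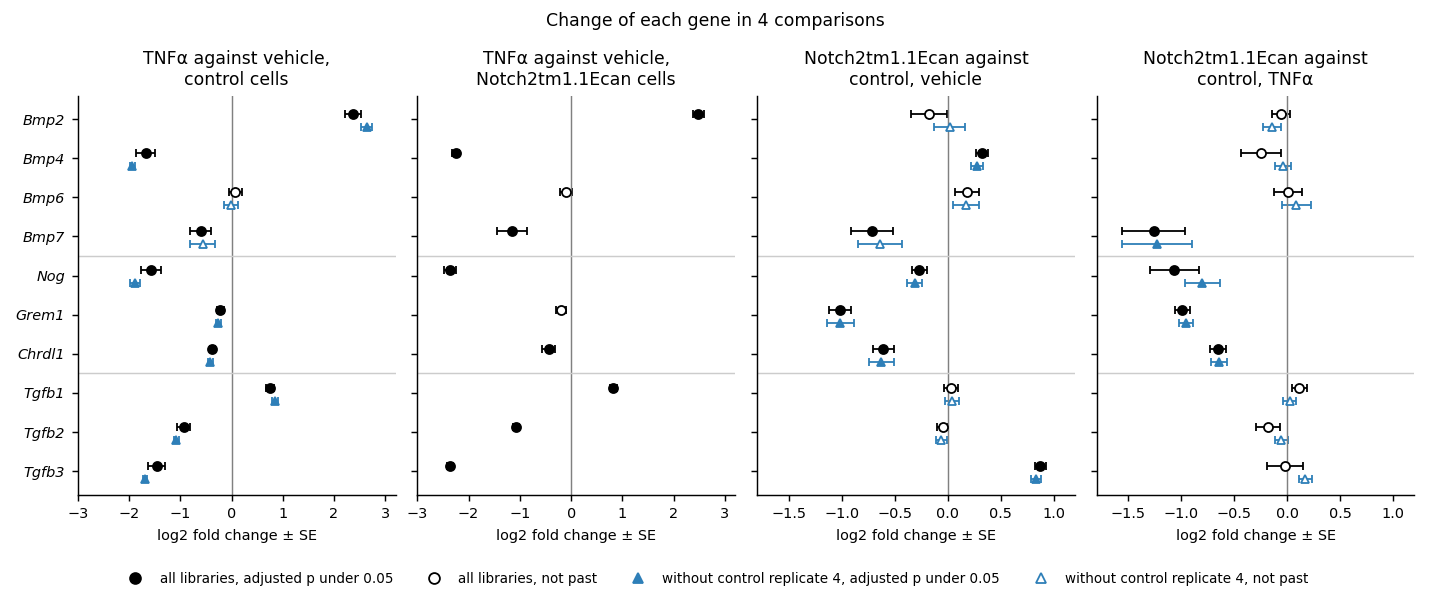
log2 fold change ± SE of each gene in 4 comparisons, from all 8 libraries (circles) and without the replicate 4 libraries of both control groups (blue triangles); filled symbols have an adjusted p under 0.05, and the axes of the left pair span more than those of the right pair. Bmp2 and Tgfb1 lie right of 0 with TNFα, Nog, Grem1 and Chrdl1 lie left of 0 in all panels, and Tgfb3 lies right of 0 for genotype with vehicle alone among the filled circles of the TGF-β isoforms.

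The BMP antagonists were lower in Notch2tm1.1Ecan cells, all 3 of them and under both treatments. Nog, whose product noggin is required for joint formation, was at 29.5, 27.8, 29.8 and 26.6 CPM in control vehicle and at 22.9, 23.8, 23.2 and 24.4 CPM in Notch2tm1.1Ecan vehicle. It was at 6.78, 8.20, 7.74 and 13.8 CPM in control TNFα and at 4.43, 4.62, 4.72 and 2.23 CPM in Notch2tm1.1Ecan TNFα, the last from 8 counts. The 4 groups did not overlap, in the order control vehicle, Notch2tm1.1Ecan vehicle, control TNFα and Notch2tm1.1Ecan TNFα.

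Nog fell with TNFα 2.97-fold in control cells (log2 fold change -1.57 ± 0.20, adjusted p = 0.000292), or 3.70-fold without both control replicate 4 libraries, and 5.17-fold in Notch2tm1.1Ecan cells (-2.37 ± 0.12, adjusted p = 2.1e-15). Between genotypes it was 1.21-fold lower with vehicle (-0.27 ± 0.07, adjusted p = 0.0134) and 2.1-fold lower with TNFα (-1.07 ± 0.23, adjusted p = 0.00766). Without control TNFα replicate 4 the last was 1.74-fold (-0.80, adjusted p = 0.00124). The genotype call with vehicle was lost in 2 of 8 fits without 1 library, those without control vehicle replicate 1 or 3 (highest adjusted p 0.0526), and in the fit to all 16 libraries (adjusted p = 0.276). For the interaction the value was -0.79 ± 0.24 (adjusted p = 0.223), and it passed with DESeq2 (adjusted p = 0.0439) and in the edgeR fit without a filter on low counts (-0.81 ± 0.16, adjusted p = 0.000156).

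Grem1, the gene of gremlin 1, which is enriched in articular and bone marrow stromal progenitors, was at 198, 180, 196 and 197 CPM in control vehicle. It was at 74.4, 97.7, 97.9 and 110 CPM in Notch2tm1.1Ecan vehicle, with 162, 161, 143 and 177 CPM in control TNFα and 74.9, 84.3, 81.3 and 79.9 CPM in Notch2tm1.1Ecan TNFα. Both Notch2tm1.1Ecan groups lay below both control groups. The difference between genotypes was 2.02-fold with vehicle (log2 fold change -1.02 ± 0.10, adjusted p = 0.000108) and 1.99-fold with TNFα (-0.99 ± 0.07, adjusted p = 3.69e-11), and the interval of the interaction was -0.22 to 0.26. TNFα lowered Grem1 1.16-fold in control cells (-0.22 ± 0.06, adjusted p = 0.00453). In Notch2tm1.1Ecan cells the change of -0.20 ± 0.10 was not past the threshold (adjusted p = 0.111). Without Notch2tm1.1Ecan vehicle replicate 1, the library with the least Grem1, it was -0.29 (adjusted p = 6.65e-05).

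Chrdl1, the gene of chordin-like 1, followed the same order as Grem1. Its libraries were at 104, 102, 98.7 and 98.7 CPM in control vehicle, 50.6, 69.5, 71.4 and 72.2 CPM in Notch2tm1.1Ecan vehicle, 76.3, 73.1, 72.9 and 78.4 CPM in control TNFα and 40.6, 53.6, 47.8 and 45.9 CPM in Notch2tm1.1Ecan TNFα. The genotypes did not overlap under either treatment, and the TNFα and vehicle libraries of Notch2tm1.1Ecan cells did. Chrdl1 was 1.52-fold lower in Notch2tm1.1Ecan cells with vehicle (log2 fold change -0.61 ± 0.10, adjusted p = 0.0013) and 1.58-fold lower with TNFα (-0.66 ± 0.07, adjusted p = 2.8e-07). TNFα lowered it 1.30-fold in control cells (-0.38 ± 0.05, adjusted p = 1.93e-06) and 1.36-fold in Notch2tm1.1Ecan cells (-0.44 ± 0.12, adjusted p = 0.0107, and up to 0.0581 with Notch2tm1.1Ecan TNFα replicate 4 left out).

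The TGF-β isoforms parted ways under TNFα. Tgfb1, the isoform abundant in platelets and bone matrix, was at 55.6, 51.0, 48.7 and 54.7 CPM in control vehicle and at 90.1, 92.5, 89.8 and 71.3 CPM in control TNFα. In Notch2tm1.1Ecan cells it was at 60.0, 50.3, 51.2 and 53.9 CPM with vehicle and at 90.6, 93.5, 95.7 and 86.3 CPM with TNFα. Each TNFα library was above each vehicle library, and the genotypes overlapped. The rise was 1.68-fold in control cells (log2 fold change 0.75 ± 0.08, adjusted p = 9.17e-07), or 1.8-fold without both control replicate 4 libraries, and 1.77-fold in Notch2tm1.1Ecan cells (0.83 ± 0.07, adjusted p = 8.31e-11). Intervals between genotypes were -0.10 to 0.16 with vehicle and -0.03 to 0.26 with TNFα.

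Tgfb2, the isoform linked to cardiac and skeletal development, fell with TNFα. It was at 217, 200, 205 and 207 CPM in control vehicle, 185, 205, 199 and 212 CPM in Notch2tm1.1Ecan vehicle, 103, 95.0, 89.5 and 134 CPM in control TNFα and 89.1, 93.6, 96.0 and 87.7 CPM in Notch2tm1.1Ecan TNFα. Vehicle and TNFα libraries did not overlap, whereas the genotypes did. The fall was 1.91-fold in control cells (log2 fold change -0.93 ± 0.12, adjusted p = 0.000538), or 2.11-fold without both control replicate 4 libraries, and 2.1-fold in Notch2tm1.1Ecan cells (-1.07 ± 0.06, adjusted p = 9.47e-14). Intervals between genotypes were -0.15 to 0.05 with vehicle and -0.41 to 0.04 with TNFα. Tgfb1 and Tgfb2 thus did not differ between genotypes past the threshold, and differences within these intervals remain possible.

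Tgfb3, which is needed for palate fusion and is widely used to induce chondrogenesis in culture, was at 247, 257, 259 and 237 CPM in control vehicle and at 489, 464, 444 and 438 CPM in Notch2tm1.1Ecan vehicle. With TNFα it was at 79.1, 75.7, 75.8 and 121 CPM in control cells and at 86.7, 88.9, 86.5 and 81.0 CPM in Notch2tm1.1Ecan cells. Notch2tm1.1Ecan vehicle stood clear above control vehicle, both TNFα groups lay below both vehicle groups, and with TNFα the genotypes overlapped through control replicate 4.

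With vehicle Tgfb3 was 1.83-fold higher in Notch2tm1.1Ecan cells (log2 fold change 0.87 ± 0.05, adjusted p = 3.65e-11), and with TNFα the difference was -0.02 ± 0.17 (adjusted p = 0.97). TNFα lowered it 2.75-fold in control cells (-1.46 ± 0.17, adjusted p = 0.000527), or 3.23-fold without both control replicate 4 libraries, and 5.13-fold in Notch2tm1.1Ecan cells (-2.36 ± 0.06, adjusted p = 1.43e-21). The fall was larger in Notch2tm1.1Ecan cells by -0.90 ± 0.18 (interaction, adjusted p = 0.0445). Without the replicate 4 libraries of both control groups the interaction was -0.66 ± 0.08 (adjusted p = 1.76e-06), and the genotype difference with TNFα was 0.17 ± 0.06 (adjusted p = 0.0771). With 1 library left out at a time the interaction was past the threshold in the 4 fits that left out a control TNFα library and not in the other 12, where its value ranged from -0.92 to -0.87 and its adjusted p was at most 0.111.

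The make-up of each family was set out as shares of its summed CPM per kb. Among the TGF-β isoforms, Tgfb3 made up 52.5 ± 1.78% (SD, n = 4) in control vehicle and 67.4 ± 1.66% in Notch2tm1.1Ecan vehicle. With TNFα it was 33.0 ± 4.47% and 33.5 ± 0.640%. Tgfb1 went from 11.3 ± 0.747% to 33.9 ± 6.76% in control cells, or 37.3% without control TNFα replicate 4, and from 8.11 ± 0.514% to 36.7 ± 0.289% in Notch2tm1.1Ecan cells. Their summed level was 91.4 ± 1.53 CPM per kb in control vehicle and 131 ± 3.61 in Notch2tm1.1Ecan vehicle, and 50.6 ± 5.51 and 49.1 ± 1.94 with TNFα. The 3 isoforms, unequal with vehicle, were near equal shares with TNFα on this length scale. On the length of the longest transcript the TNFα shares were 45.3% of Tgfb1, 26.5% of Tgfb2 and 28.1% of Tgfb3 in control cells and 48.5, 23.5 and 28.0% in Notch2tm1.1Ecan cells, so that the near equality depends on the length used.

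Among the 4 BMP ligands, Bmp4 made up 87.2 ± 2.15% in control vehicle and 89.8 ± 0.806% in Notch2tm1.1Ecan vehicle. With TNFα its share was 47.2 ± 7.07% and 44.9 ± 1.70%. Bmp2 went from 4.11 ± 1.28% to 38.2 ± 7.05% in control cells and from 2.99 ± 0.541% to 40.8 ± 3.19% in Notch2tm1.1Ecan cells. The summed level was 33.3 ± 1.33 and 40.7 ± 3.06 CPM per kb with vehicle and 18.4 ± 2.14 and 16.4 ± 0.521 with TNFα, for control and Notch2tm1.1Ecan cells in this order. Bmp2 thus took a larger share of a lower total of the 4 ligands. Without control TNFα replicate 4 the control TNFα shares were 43.7% of Bmp4 and 41.7% of Bmp2. On the length of the longest transcript the TNFα shares of Bmp4 and Bmp2 were 56.4 and 31.0% in control cells. In Notch2tm1.1Ecan cells they were 54.3 and 33.3%.

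For the antagonists, Grem1 held 59.4 ± 1.25% in control vehicle, 49.0 ± 2.22% in Notch2tm1.1Ecan vehicle, 70.2 ± 1.67% in control TNFα and 67.5 ± 2.07% in Notch2tm1.1Ecan TNFα. Nog went from 21.5 ± 0.880% to 9.62 ± 2.43% with TNFα in control cells and from 30.1 ± 3.11% to 8.22 ± 2.31% in Notch2tm1.1Ecan cells. The summed level of the 3 antagonists was 78.0 ± 2.53 CPM per kb in control vehicle, 46.5 ± 5.39 in Notch2tm1.1Ecan vehicle, 55.2 ± 5.21 in control TNFα and 28.6 ± 1.97 in Notch2tm1.1Ecan TNFα. On the length of the longest transcript the shares of Grem1 were 53.1, 43.4, 62.4 and 58.7% in the same order of groups.

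The ratio of the 4 ligands to the 3 antagonists, both as summed CPM per kb, was 0.417, 0.439, 0.443 and 0.411 in the control vehicle libraries. In Notch2tm1.1Ecan vehicle it was 1.16, 0.838, 0.805 and 0.757. It was 0.311, 0.322, 0.355 and 0.346 in control TNFα and 0.615, 0.521, 0.546 and 0.629 in Notch2tm1.1Ecan TNFα. The Notch2tm1.1Ecan libraries lay above the control libraries under both treatments, and the TNFα libraries below the vehicle libraries in either genotype. On the longest transcripts the means were 0.554, 1.15, 0.373 and 0.626 in the same order of groups, again without overlap between genotypes. The ratio is one of transcripts, describes genes already tested above, and was given no test of its own.

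**Figure D3:**
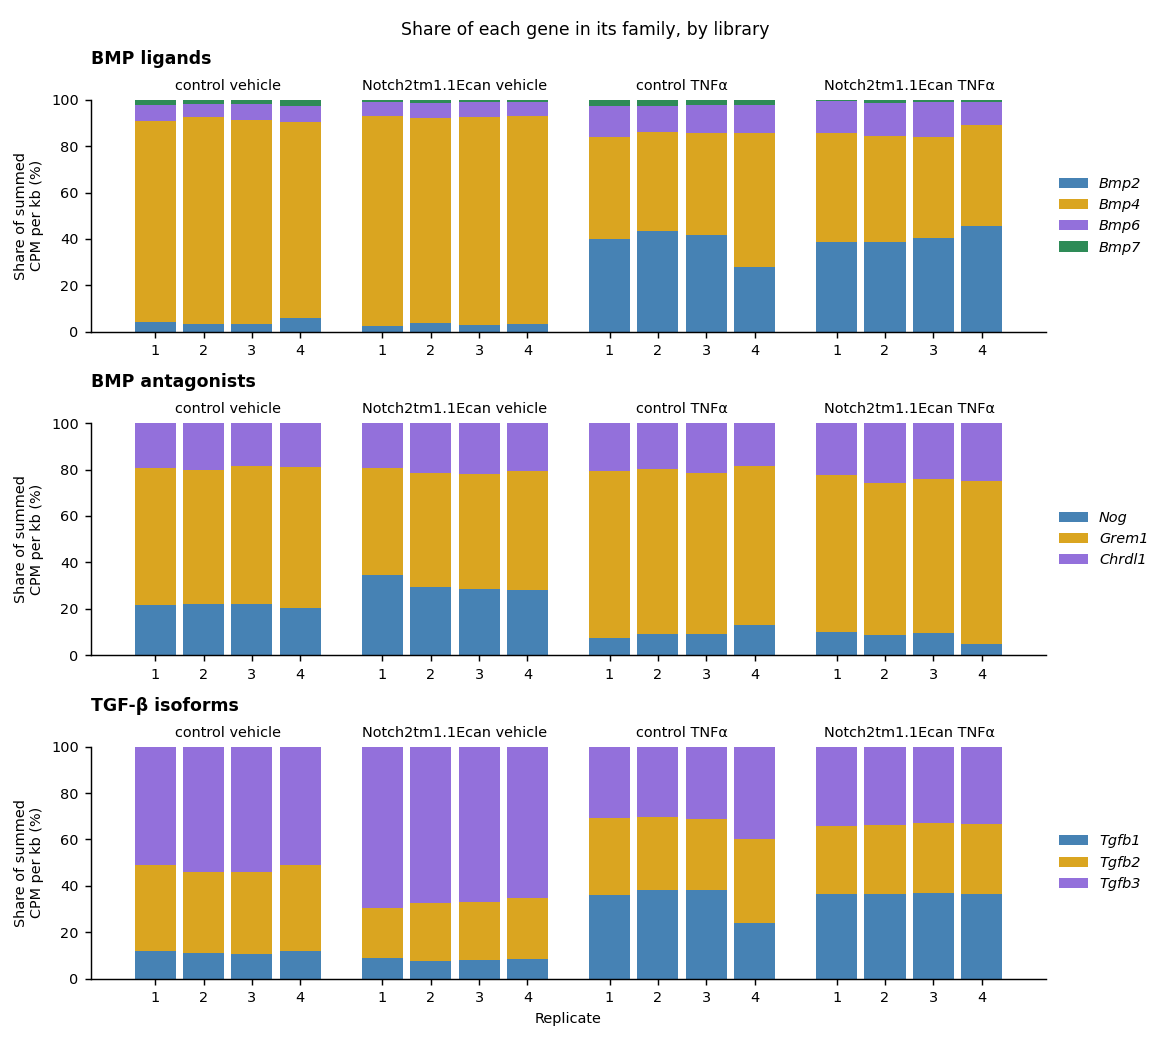
Share of each gene in the summed CPM per kb of merged exons of its family, in percent, for each of the 16 libraries (bars, 1 per library, numbered by replicate). Bmp2 and Tgfb1 take larger shares in the TNFα groups, Tgfb3 is largest in Notch2tm1.1Ecan vehicle (67.4% on average), and Nog takes smaller shares in the TNFα groups.

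The rest of the pathway was taken from lists of genes by role, whose counts are to be read against the shares of all genes called, which were 23.3% higher and 20.9% lower for TNFα in control cells, 22.6% and 21.9% in Notch2tm1.1Ecan cells, 6.19% and 4.35% for genotype with vehicle and 5.63% and 4.31% for genotype with TNFα. Of 14 target genes of BMP and TGF-β signaling, 11 fell and 1 rose with TNFα in control cells, and 10 fell and 1 rose in Notch2tm1.1Ecan cells, with median log2 fold changes of -1.15 and -1.53. Without both control replicate 4 libraries 10 fell and 1 rose in control cells. Id1, an inhibitor of basic helix-loop-helix factors and a direct BMP target, went from 81.0 ± 9.20 to 8.83 ± 7.78 CPM in control cells (-3.09 ± 0.50, adjusted p = 0.00262), a fall of 8.54-fold, or 16.3-fold without both control replicate 4 libraries. In Notch2tm1.1Ecan cells it went from 101 to 3.93 CPM (-4.72 ± 0.10, adjusted p = 5.8e-24). Ccn2, a matricellular protein induced by TGF-β, fell by 2.79 ± 0.44 on the log2 scale in control cells (adjusted p = 0.00225), 6.92-fold, or 10.6-fold without these libraries. Atoh8, a transcription factor induced by BMPs, fell by 3.98 ± 0.09 in Notch2tm1.1Ecan cells (adjusted p = 3.3e-23). The target that rose was Junb, also an immediate early gene of TNFα, by 1.28 ± 0.08 in control cells (adjusted p = 2.33e-09) and 1.00 ± 0.07 in Notch2tm1.1Ecan cells (adjusted p = 2e-12).

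Between genotypes with vehicle, 5 of the 14 targets were higher in Notch2tm1.1Ecan cells and 1 lower, or 6 and 1 without control replicate 4. Id4, an inhibitor of basic helix-loop-helix factors like Id1, was higher by 0.42 ± 0.08 (25.4 ± 2.77 against 33.9 ± 1.28 CPM, adjusted p = 0.00065). Tgfbi, an extracellular matrix protein also named for its induction by TGF-β, was lower (-0.58 ± 0.06, adjusted p = 1.6e-07). With TNFα none was higher and 2 were lower, Dlx5 (-0.55 ± 0.16, adjusted p = 0.0273) and Tgfbi (-0.44 ± 0.06, adjusted p = 1.4e-05). Without the replicate 4 libraries of both control groups 1 target was higher and 4 were lower with TNFα. The lower ones were Id3, Atoh8, Ccn2 and Tgfbi (-0.51 to -0.21), and the values of the higher one are not reported here. No gene of the 6 lists passed for the interaction with all libraries. Without these 2 libraries the targets Id3 (-0.64 ± 0.10, adjusted p = 0.000101) and Atoh8 (-0.81 ± 0.12, adjusted p = 3e-05) did, which are named here after their values were seen.

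Of 13 SMADs and intracellular regulators, 6 fell and 1 rose in control cells with TNFα, or 9 and 1 without the replicate 4 libraries, and 7 fell and 2 rose in Notch2tm1.1Ecan cells. Smad9, which carries BMP signals, went from 37.9 ± 2.05 to 7.15 ± 2.26 CPM in control cells (-2.34 ± 0.17, adjusted p = 2.38e-06) and fell by 2.91 ± 0.11 in Notch2tm1.1Ecan cells (adjusted p = 4.4e-18). Smad6, an inhibitory SMAD and itself a BMP target, fell by 1.37 ± 0.18 (adjusted p = 0.000869) and by 1.99 ± 0.07 (adjusted p = 7.1e-19). Smurf1, a ubiquitin ligase for SMADs, rose by 0.66 ± 0.06 (adjusted p = 4.36e-09) and 0.69 ± 0.06 (adjusted p = 8e-10). Between genotypes 2 of the 13 passed under either treatment, or 1 with TNFα without both control replicate 4 libraries, against 10.5% of all genes with vehicle and 9.94% with TNFα. With vehicle these were Pmepa1 (0.45 ± 0.06, adjusted p = 6.7e-06) and Smad3 (-0.24 ± 0.05, adjusted p = 0.0028).

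The 15 receptors and coreceptors had median log2 fold changes of -0.04 and -0.06 for TNFα. In control cells 3 rose and 6 fell, and in Notch2tm1.1Ecan cells 3 rose and 4 fell, where 44.2% and 44.5% of all genes were called. Acvrl1, the type I receptor ALK1, rose by 0.91 ± 0.08 in control cells (adjusted p = 1.02e-08) and was higher in Notch2tm1.1Ecan cells with vehicle (0.68 ± 0.09, adjusted p = 8.1e-06) and with TNFα (0.77 ± 0.09, adjusted p = 2e-07). It is abundant in endothelial cells, whose marker sum also differed between genotypes, and the part of these cells was not tested. Bambi, a decoy receptor without a kinase domain, fell by 1.45 ± 0.14 (adjusted p = 2.15e-08) and 1.60 ± 0.13 (adjusted p = 5e-11) with TNFα. Tgfbr2, the TGF-β type II receptor, was lower in Notch2tm1.1Ecan cells, at 271 against 325 CPM with vehicle (-0.26 ± 0.05, adjusted p = 0.00036).

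Of 18 other BMP, GDF and activin genes, 14 were tested for TNFα in control cells, where 2 rose and 6 fell, and 14 in Notch2tm1.1Ecan cells, where 3 rose and 6 fell. The 3 include Bmp10, which had 0 counts in all vehicle libraries and 6, 1, 3 and 0 counts with TNFα in these cells. Bmp3, a BMP that counters the others, went from 2.86 ± 3.52 to 31.1 ± 2.69 CPM in control cells (3.45 ± 0.59, adjusted p = 0.00346), a rise of 10.9-fold, or 30.6-fold without the replicate 4 libraries. In Notch2tm1.1Ecan cells it went from 0.962 to 23.3 CPM (4.76 ± 0.16, adjusted p = 3.9e-19). Gdf10, a BMP3-related factor, fell from 338 ± 27.9 to 57.0 ± 32.9 CPM in control cells (-2.52 ± 0.39, adjusted p = 0.00202), 5.74-fold, or 8.48-fold without the replicate 4 libraries, and by 3.29 ± 0.07 in Notch2tm1.1Ecan cells (adjusted p = 1e-23). Gdf5, the joint interzone factor, was lower in Notch2tm1.1Ecan cells with vehicle (9.68 against 19.7 CPM, -1.02 ± 0.10, adjusted p = 1.4e-07) and with TNFα (14.3 against 31.7 CPM, -1.13 ± 0.09, adjusted p = 2.9e-10). Inhba, the activin βA chain, was higher in Notch2tm1.1Ecan vehicle (0.64 ± 0.08, adjusted p = 5.6e-05).

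Of 15 other secreted antagonists and modulators, 7 rose and 3 fell among the 13 tested for TNFα in control cells, and 6 rose and 5 fell among 14 in Notch2tm1.1Ecan cells. The 5 include Sost, which had 0, 5, 3 and 10 counts with vehicle and 0 in all TNFα libraries of these cells. Bmper (0.87 ± 0.10, adjusted p = 1.76e-07) and Nbl1 (0.71 ± 0.06, adjusted p = 1.25e-09) rose in control cells. Fst, the gene of the activin antagonist follistatin, fell by 0.85 ± 0.09 in control cells (adjusted p = 1.77e-06) and by 1.14 ± 0.07 in Notch2tm1.1Ecan cells (adjusted p = 5.4e-13). Between genotypes 4 were higher and 1 lower with vehicle, and 3 higher and 1 lower with TNFα. Of 11 genes of TGF-β storage and activation, 4 rose and 4 fell with TNFα in control cells. Thbs1, whose product thrombospondin 1 activates latent TGF-β, fell by 1.72 ± 0.23 (adjusted p = 0.00109) and by 2.00 ± 0.06 in Notch2tm1.1Ecan cells (adjusted p = 3.3e-21). The latent TGF-β binding protein gene Ltbp1 fell by 0.59 ± 0.06 in control cells (adjusted p = 9.66e-08).

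**Figure D4:**
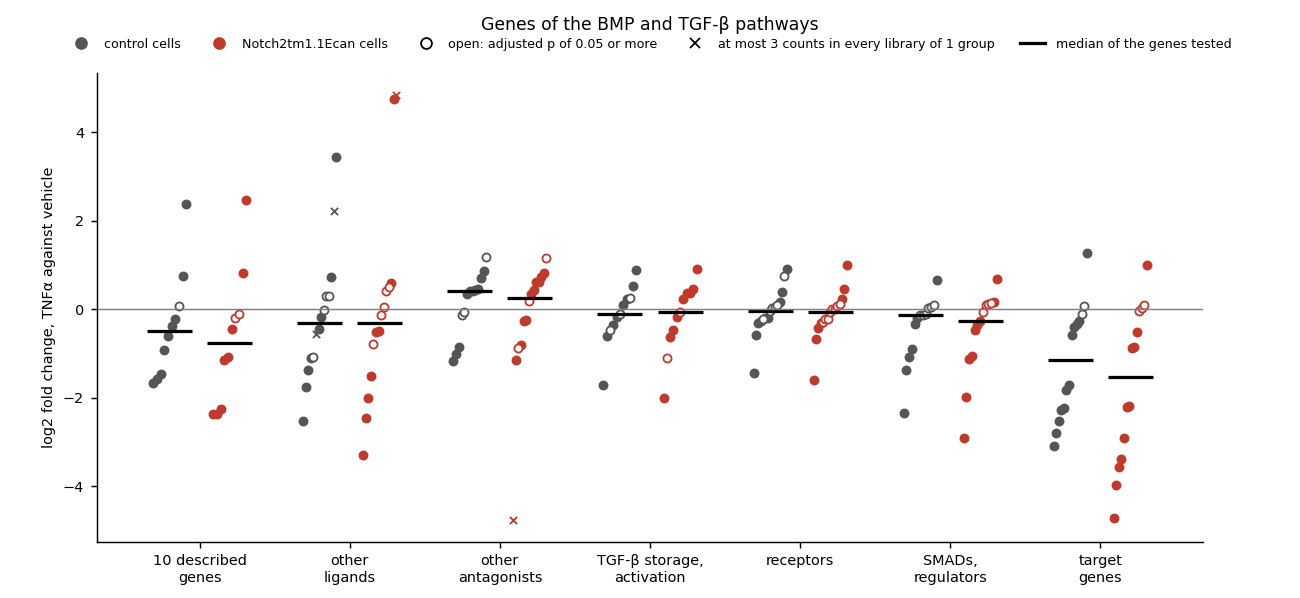
log2 fold change of TNFα against vehicle for each gene tested of 7 lists, in control cells (grey) and Notch2tm1.1Ecan cells (red); filled points have an adjusted p under 0.05, crosses mark genes with at most 3 counts in every library of 1 group, whose values depend on the prior count, and bars are medians. The target genes lie lowest, with medians of -1.15 and -1.53, and the receptors lie around 0.

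Genes whose profiles over the 16 libraries were most like those of the 10 were sought among 13411 genes, by the root mean square difference of centred log2 CPM. For Tgfb3 the closest were Cnn1 (0.165), Gadd45g (0.175) and Inhba (0.182), with an SD of 1.08 for Tgfb3 itself over the libraries. Cnn1 is a smooth muscle marker of the list above. For Bmp4 they were Id2 (0.133), Ckb (0.143) and Jph2 (0.152), with an SD of 1.07. For Bmp2 they were Il15ra (0.133), Ly6e (0.140) and Nhsl3 (0.146), with an SD of 1.27. Grem1 was closest to F13a1 (0.183), Slc7a3 (0.191) and Meltf (0.203), with an SD of 0.556. Tgfb2 was closest to Grb10 (0.0446), Magi3 (0.0853) and Ugdh (0.0904), with an SD of 0.566. These distances are descriptions over libraries that share treatment, genotype and the replicate 4 libraries that stood apart.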

How the data were processed

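RNA from 16 cultures was sequenced by the authors as paired reads of 75 bp. Per the paper's methods the authors trimmed the reads, mapped them with HISAT2 and counted them per gene with htseq-count. The submitters' processing notes give HISAT2 2.1.0, SAMtools 1.9 and GRCm38, whereas the methods give GRCm39. The library kit was stranded, the strand setting of the counting is not given in the sources used here, and whether reads of genes overlapping on opposite strands were kept apart is therefore not known. The deposited values are whole-number counts per gene without normalization, 1 file per library. Entries without a gene, 8.81 to 12.1% of a library, were not used. Names and GRCm39 positions were looked up by identifier in GENCODE M39, where 665 identifiers, with 0.0182% of counts, had no entry.

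Counts were fitted with edgeR 4.0.16 in R 4.3.3 (TMM, robust quasi-likelihood, genes with at least 10 counts summed over the libraries of the fit), on 8 libraries per comparison and 16 for the interaction. SEs were derived from the F statistic. The threshold was an adjusted p under 0.05. The labels number the libraries of a group as biological replicates and do not say whether each was a separate culture or set of mice, so p values measure the spread between these libraries. The limit of 3 counts covers counting error only. Alternatives were DESeq2 1.42.0, RLE normalization, other filters, a single fit of the 16 libraries, a block for the replicate number and each library left out. Values without both control replicate 4 libraries were an alternative for the 10 genes, added after seeing the data for lists and shares. The 10 genes and the lists were chosen with earlier results of these data known. Named from the lists were up to 2 genes per direction and comparison with the largest change past the threshold and a mean of at least 1 CPM. The values of 1 of these genes are not reported here. The pipeline was tested on simulated data. Figures were drawn with matplotlib 3.10.9.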

Additional observations from a re-analysis of the deposited data

Results flagged for a closer look

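Within groups of 4 libraries, 1 library lay far from the other 3 by Dixon's criterion in 8 of the 40 groups checked, where chance gives about 1 in 20. In control TNFα replicate 4 these were Bmp4 at 65.3 CPM against 39.1 to 40.7 CPM in the others, Tgfb1 at 71.3 CPM against 89.8 to 92.5 CPM and Tgfb3 at 121 CPM against 75.7 to 79.1 CPM. In Notch2tm1.1Ecan TNFα replicate 4, the library with the lowest total, they were Bmp2 at 36.2 CPM against 28.9 to 30.2 CPM and Nog at 2.23 CPM against 4.43 to 4.72 CPM. In Notch2tm1.1Ecan vehicle replicate 1 they were Bmp4 at 215 CPM against 181 to 186 CPM and Chrdl1 at 50.6 CPM against 69.5 to 72.2 CPM. In control vehicle replicate 2 it was Grem1, at 179.8 CPM against 196 to 198 CPM.

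The response of Tgfb3 to TNFα differed between genotypes by -0.90 on the log2 scale (edgeR's quasi-likelihood test, Benjamini-Hochberg adjusted p = 0.0445), and its adjusted p ranged from 2.43e-06 to 0.111 with 1 library left out at a time.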

How the results depend on the processing

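Outside the fits that left out 1 library, 399 of the members' log2 fold changes under an alternative kept their direction and their side of the threshold, 20 lost the threshold, 4 gained it and 7 changed sign, none of them past the threshold. The rules of an adjusted p under 0.1 and of a log2 change of at least 1 are counted too. They reuse the main fit, so that no direction could change. Losses in a different fit were Bmp7 for TNFα in control cells and for genotype with vehicle (without both control replicate 4 libraries), Bmp4 and Nog for genotype with vehicle (all 16 libraries) and the Tgfb3 interaction (replicate block). The rest of the 20 fell to the rule on size alone. The 7 that changed sign were Bmp6 for TNFα in control cells (-0.011), Bmp2 for genotype with vehicle (0.017), Tgfb3 for genotype with TNFα (0.17), and the interactions of Bmp2 (-0.16), Tgfb1 (-0.013) and Tgfb2 (0.0096), all without both control replicate 4 libraries, and Tgfb3 for genotype with TNFα (0.032) with the replicate block. With 1 library left out, 440 kept both, 21 lost the threshold, 1 gained it and 18 changed sign. The ranges of those that changed sign were -0.028 to 0.15 for Bmp6 with TNFα in control cells, -0.28 to 0.02 for Bmp2 and -0.019 to 0.060 for Tgfb1 for genotype with vehicle, -0.073 to 0.086 for Bmp6 and -0.10 to 0.17 for Tgfb3 for genotype with TNFα, and -0.11 to 0.21 for Bmp2, -0.081 to 0.10 for Grem1, -0.16 to 0.020 for Chrdl1 and -0.21 to 0.0016 for Tgfb2 for the interaction.

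Where the change also had to reach 1 on the log2 scale, 4 members were called for TNFα in control cells, 1 for genotype with vehicle, 2 for genotype with TNFα and 0 for the interaction. For the interaction DESeq2 called 2, the fit without a filter 2, the replicate block 0 and the fits without 1 library 0 to 1. Correlations of the deviations of same-numbered libraries from their group means lay between -0.170 and 0.106. They did not show pairing by replicate number, and with 4 libraries per group they cannot exclude it. With the replicate number as a block, Grem1 for TNFα in Notch2tm1.1Ecan cells passed (-0.18, adjusted p = 0.0298) and the Tgfb3 interaction did not (-0.88, adjusted p = 0.136). Without both control replicate 4 libraries, target genes called were 5 for genotype with TNFα and 2 for the interaction, and SMADs 1 for genotype with TNFα. By the longest transcript, levels in control vehicle cells were 43.8 for Bmp4, 24.1 for Chrdl1, 20.4 for Tgfb1, 39.0 for Tgfb2 and 60.0 CPM per kb for Tgfb3. The cause of these changes was not tested. Depth limits Bmp7 and Nog in Notch2tm1.1Ecan TNFα replicate 4, where they had 3 and 8 counts.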
